A study of Mus musculus with 6 samples.

Results

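The Hes, Hey and Notch feedback genes are 9 genes that were taken by symbol from the deposited expression table: Hes1, Hes6, Hey1, Hey2, Heyl, Nrarp, Numb, Numbl and Rbpj. Each symbol matched 1 of the 38924 genes counted and all 9 passed the filter on low counts that kept 17116 genes. RNA-seq counts were available for 6 mouse libraries. Quiescent satellite cells (QSC), the resting stem cells of skeletal muscle, had a library from mouse 1 and a library from mouse 3. Activated satellite cells (ASC; the title adds myo, Pax7-plus and p1), Pax7-nGFP+ and Pax7-nGFP- sorted induced myogenic progenitor cells (iMPCs) and mouse embryonic fibroblasts (MEFs) had 1 library each. The iMPCs are muscle progenitors reprogrammed from MEFs or from cells the labels call TTFs, with doxycycline in the medium, and are called Pax7-positive and Pax7-negative here after the Pax7-nGFP signal on which they were sorted. For their expansion, per the labels' protocols, doxycycline was left out and forskolin (5 µM), RepSox (5 µM) and a GSK3 inhibitor (3 µM) were present. The labels name no reprogramming factor, strain, age or sex, do not say which starting cells or whether a clone or a bulk culture gave the sorted iMPCs, and give no medium for ASC or MEFs.

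In Notch signalling a ligand on a neighbouring cell releases the receptor's intracellular part, which joins the DNA-binding protein Rbpj and switches on genes for repressors of the Hes and Hey families. Nrarp is switched on by the same complex and dampens it, Numb and Numbl are adaptor proteins that act against the receptor, and Hes6 is a Hes relative that acts against Hes1 and favours differentiation. In skeletal muscle, Notch signalling is known for keeping satellite cells quiescent, with Hey1 and Heyl among its targets there.

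Promoter sequences are shown for 3 genes of different role and level: Hes6, which was highest in ASC, Nrarp, the feedback inhibitor, and Hey2, which was nearly silent. They come from RefSeq (GRCm38.p6), in which 6 of the 9 genes had an entry, and each is the 250 bases upstream of an annotated start, on the gene's own strand. The deposited counts were made on mm9, so these coordinates are not those of the counted genes. Capitals mark CAGCTG (an E-box, the kind of site that myogenic bHLH factors bind) in the Hes6 windows, CACGTG (an E-box of the kind Hes and Hey proteins can bind) in the Nrarp window and TGGGAA, the core letters bound by Rbpj, read on either strand, in the Hey2 window.
Hes6, chr1:91414039-91414288, minus strand: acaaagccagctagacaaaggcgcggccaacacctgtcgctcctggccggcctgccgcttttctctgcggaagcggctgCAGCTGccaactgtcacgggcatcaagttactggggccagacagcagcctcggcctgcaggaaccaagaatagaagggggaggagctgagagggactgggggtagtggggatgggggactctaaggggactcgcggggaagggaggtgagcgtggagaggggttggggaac
Hes6, chr1:91413223-91413472, minus strand: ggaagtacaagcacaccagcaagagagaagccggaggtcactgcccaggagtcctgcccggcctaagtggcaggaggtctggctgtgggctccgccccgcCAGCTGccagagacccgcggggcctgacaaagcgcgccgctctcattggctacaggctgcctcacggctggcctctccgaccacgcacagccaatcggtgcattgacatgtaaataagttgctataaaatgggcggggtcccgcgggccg
Nrarp, chr2:25180508-25180757, plus strand: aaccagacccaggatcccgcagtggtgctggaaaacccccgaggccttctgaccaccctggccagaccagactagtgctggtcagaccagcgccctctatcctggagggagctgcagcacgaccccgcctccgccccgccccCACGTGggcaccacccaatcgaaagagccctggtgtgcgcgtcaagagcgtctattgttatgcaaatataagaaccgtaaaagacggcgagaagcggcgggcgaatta
Hey2, chr10:30842784-30843033, minus strand: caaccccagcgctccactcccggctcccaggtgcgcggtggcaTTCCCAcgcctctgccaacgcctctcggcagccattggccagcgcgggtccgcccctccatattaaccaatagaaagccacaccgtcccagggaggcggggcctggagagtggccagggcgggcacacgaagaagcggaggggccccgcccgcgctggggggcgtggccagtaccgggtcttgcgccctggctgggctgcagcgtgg
Both Hes6 windows held CAGCTG, which 13.0% of all 32851 RefSeq windows of these 250 bases hold. The Nrarp window held CACGTG, found in 6.02% of windows. The Hey2 window held TGGGAA on its opposite strand, as TTCCCA, found in 21.6% of windows on either strand, and the same stretch holds the longer form GTGGGAA, found in 5.42%. TGGGAA was not among the letters of either Hes6 window or of the Nrarp window. A match of letters is a description, and binding was not measured.

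Levels are given as CPM, read counts relative to the library's total after TMM scaling, always with mouse 1 before mouse 3 for QSC, and differences from QSC are log2 estimates of edgeR with their SE. Called means a Benjamini-Hochberg adjusted p under 0.05 over all genes in edgeR's quasi-likelihood test. Only QSC had more than 1 library, so every SE and p rests on the spread between 2 mice, and each lone library is assumed to vary as they do. That spread is mostly pooled over all genes (1 residual against 16.3 prior degrees of freedom). An SE therefore says little about how far the mice differed in that gene. Each SE was derived from the estimate and its F statistic. Library totals lay between 20859611 and 29279686 counts. Xist was at 0.0953 CPM in QSC of mouse 1 and 529.9 CPM in mouse 3, and Y-linked Ddx3y at 454 and 0.226 CPM, so the mice were of opposite sex. The 15 dissociation stress genes summed to 68867 and 81038 CPM in QSC and to between 946 and 1508 CPM in the other 4 libraries. Satellite cell markers summed to 4614 and 4276 CPM in QSC and to between 359 and 2089 CPM elsewhere, with Pax7 at 0 counts in MEFs. Most of the QSC sums was Sdc4 (2048 and 1903 CPM) and Vcam1 (1032 and 490 CPM), and not every marker was lower elsewhere. Itga7 (723 CPM) and Cdh15 (962 CPM) in Pax7-positive iMPCs lay above both QSC mice (435 and 238 CPM, 313 and 555 CPM). In ASC, Itga7 (651 CPM) and Cxcr4 (17.0 CPM, against 7.53 and 12.4 CPM) did too. The sum of the 10 fibroblast markers was highest in MEFs (16361 CPM) and Pax7-negative iMPCs (8212 CPM). Most of the MEF sum was Col1a1 (8921 CPM) and Col1a2 (3863 CPM), and single markers differed in order. Dcn was highest in Pax7-negative iMPCs (417 CPM, with 40.6 CPM in MEFs). Fap was highest in Pax7-positive iMPCs (34.0 CPM, with 2.54 CPM in MEFs). In bulk RNA, fewer cells of a type and less RNA per cell cannot be told apart. Without TMM, the median log2 difference of all genes from QSC was higher by 0.589 to 0.71, so the differences here are relative to the TMM scale.

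In Pax7-positive iMPCs 2 of the 9 genes were called against QSC, Hes6 up and Numb down, where 20.6% of all genes were called, 11.3% up and 9.31% down. In Pax7-negative iMPCs 1 gene was called, Hes6 up, where 18.6% of all genes were called, 12.1% up and 6.57% down. In ASC 3 genes were called, Hes6 up and Hey1 and Heyl down, beside 20.1% of all genes, 11.8% up and 8.24% down. In MEFs 3 genes were called, Hey1, Heyl and Nrarp, all down, beside 19.4% of all genes, 11.3% up and 8.03% down. Library size scaling changed the split of all calls from 1931 up and 1593 down to 1998 and 531 in Pax7-positive iMPCs, from 2065 and 1124 to 2141 and 329 in Pax7-negative iMPCs, from 2021 and 1411 to 1868 and 501 in ASC, and from 1938 and 1374 to 1836 and 461 in MEFs. Their median differences from QSC were -0.51 for Pax7-positive iMPCs, -1.28 for Pax7-negative iMPCs, -0.47 for ASC and -0.75 for MEFs, beside medians of all genes of -0.03, 0.15, 0 and 0. Since these comparisons share the QSC libraries, each is read for itself.

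**Figure D1:**
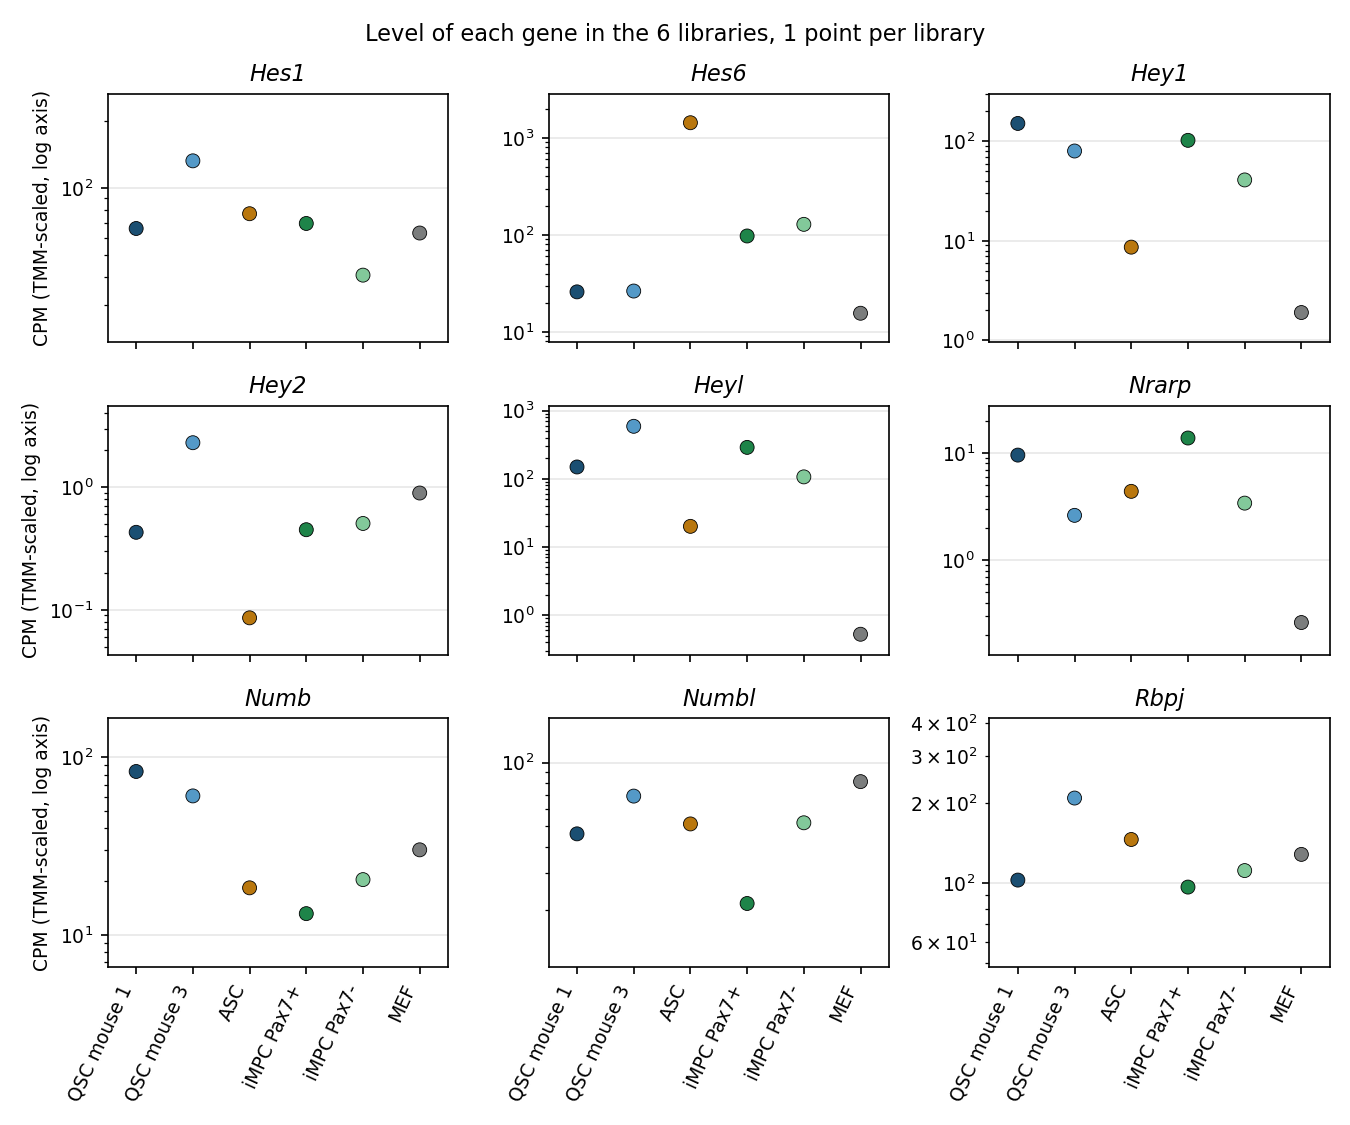
Level of the 9 genes in the 6 libraries, as TMM-scaled CPM on log axes that differ between panels, with 1 point per library. Hes6 stands at 1431 CPM in ASC, Hey1 and Heyl are lowest in MEFs, and Numb is higher in both QSC mice than in any other library.

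Hes6, the differentiation-promoting relative of Hes1, was higher in the 3 cultured myogenic libraries than in the resting cells and the fibroblasts. It was at 25.9 and 26.4 CPM in QSC, 1431 CPM in ASC, 97.6 CPM in Pax7-positive iMPCs, 129 CPM in Pax7-negative iMPCs and 15.6 CPM in MEFs. The QSC mice were nearly level, the 3 cultured myogenic libraries lay above both of them, and the MEF library lay below both. Hes6 rose by 5.77 ± 0.64 (SE) in ASC (edgeR adjusted p = 9.35e-06), by 1.90 ± 0.58 in Pax7-positive iMPCs (adjusted p = 0.0288) and by 2.3 ± 0.58 in Pax7-negative iMPCs (adjusted p = 0.0113). In MEFs the difference was -0.75 ± 0.63 and was not called (edgeR adjusted p = 0.427). All 3 increases were called under every other scaling, filter, sample choice and tool tried, and the difference in ASC was 5.78 from mouse 1 and 5.75 from mouse 3.

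The 11 measured genes of myogenic differentiation were read beside Hes6. They summed to 417 and 55.4 CPM in QSC, 22922 CPM in ASC, 2324 CPM in Pax7-positive iMPCs, 5968 CPM in Pax7-negative iMPCs and 60.0 CPM in MEFs, and none was at 0 counts in any library. All 11 rose in ASC, 10 in Pax7-negative and 6 in Pax7-positive iMPCs against QSC, and 5 fell in MEFs (10 became 6 and 5 became 1 under library size scaling). Of all genes, 11.8% rose in ASC, 12.1% in Pax7-negative and 11.3% in Pax7-positive iMPCs, and 8.03% fell in MEFs. The QSC mice differed in this sum and were nearly level in Hes6, and they also differed in sex and in RNA of other cells. The part of the differentiation genes in the Hes6 levels was not tested. Between single libraries Hes6 was 14.7-fold higher in ASC than in Pax7-positive iMPCs (exact 95% counting interval 14.1 to 15.2), and 1.32-fold higher in Pax7-negative than in Pax7-positive iMPCs (1.26 to 1.38). Such intervals cover counting error only and compare libraries, not conditions.

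Hey1 and Heyl, the Hey repressors that mark Notch activity in satellite cells, were high in QSC and in Pax7-positive iMPCs and low in ASC and MEFs. Hey1 was at 152 and 80.1 CPM in QSC, 103 CPM in Pax7-positive iMPCs, 41.0 CPM in Pax7-negative iMPCs, 8.66 CPM in ASC and 1.91 CPM in MEFs. The Pax7-positive iMPC library lay between the QSC mice, and the other 3 lay below both. This placement holds on the TMM scale: by deposited RPKM, made without TMM, Pax7-positive iMPCs (54.9) lay above both mice (49.3 and 27.8). Hey1 fell by 3.74 ± 0.77 in ASC (edgeR adjusted p = 0.00235) and in MEFs it fell by 5.92 ± 0.87 (adjusted p = 0.000179). Its differences of -0.18 ± 0.63 in Pax7-positive and -1.5 ± 0.67 in Pax7-negative iMPCs were not called (edgeR adjusted p = 0.874 and 0.128), which does not show that these levels were alike.

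Heyl followed the same order of groups over a wider range. It was at 149 and 588 CPM in QSC, 289 CPM in Pax7-positive iMPCs, 107 CPM in Pax7-negative iMPCs, 20.0 CPM in ASC and 0.523 CPM in MEFs, where 14 reads were counted. Again only the Pax7-positive iMPC library lay between the QSC mice on the TMM scale. By deposited RPKM, Pax7-negative iMPCs (28.6) also lay between them (23.6 and 99.3). Heyl fell by 4.20 ± 0.90 in ASC (edgeR adjusted p = 0.00335) and in MEFs it fell by 9.45 ± 1.19 (adjusted p = 4.3e-05), and its differences of -0.35 ± 0.73 in Pax7-positive and -1.79 ± 0.78 in Pax7-negative iMPCs were not called (adjusted p = 0.764 and 0.121). Under library size scaling the difference in ASC was -3.64 and lost its call (edgeR adjusted p = 0.0703; range over all alternatives 1.62e-06 to 0.0703). Taken by mouse, the difference in ASC was -2.89 from mouse 1 and -4.87 from mouse 3, and in MEFs -7.95 and -9.93.

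Hey1 is also a gene of blood vessel endothelium, and Heyl of pericytes and vascular smooth muscle, so both marker lists were read in the same libraries. The 11 endothelial markers summed to 233 and 61.6 CPM in QSC, 31.7 CPM in ASC, 41.5 CPM in Pax7-positive iMPCs, 94.3 CPM in Pax7-negative iMPCs and 88.4 CPM in MEFs. Cldn5 and Kdr were at 0 counts in Pax7-positive iMPCs, where Eng was at 28.9 CPM and Egfl7 at 8.56 CPM. Emcn and Tie1 were at 0 counts in ASC, where Eng was at 25.5 CPM, most of the sum. In MEFs Cdh5, Cldn5 and Tie1 were at 0 counts. Flt1 was there at 42.2 CPM (23.0 and 3.80 CPM in QSC), Eng at 19.5 CPM and Kdr at 15.1 CPM. In QSC the mouse with more endothelial RNA, mouse 1, also had more Hey1, and the part of these cells in its level was not tested. The 9 pericyte and smooth muscle markers summed to 671 and 629 CPM in QSC, 701 CPM in Pax7-positive iMPCs, 1538 CPM in Pax7-negative iMPCs, 1669 CPM in ASC and 5408 CPM in MEFs. Most of the MEF sum was Acta2 (4038 CPM) and Tagln (889 CPM), contractile genes. The pericyte genes Kcnj8 and Abcc9 were named after their values were seen. They were at 1.08 and 1.16 CPM in MEFs, 20.0 and 17.3 CPM in Pax7-positive iMPCs and 99.97 and 73.1 CPM in Pax7-negative iMPCs. In ASC, Kcnj8 was at 0 counts and Abcc9 at 41.99 CPM, a rise from QSC (edgeR adjusted p = 0.00312). Rgs5 was highest in ASC (154.6 CPM). Cspg4 was highest in MEFs (160.1 CPM), where Pdgfrb was at 173.3 CPM, and lowest in Pax7-negative iMPCs (1.11 CPM). These markers thus had no common order among the libraries. Kcnj8, Pdgfrb and Mcam rose in both iMPC fractions against QSC, and the part of such cells in the Heyl levels was not tested.

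**Figure D2:**
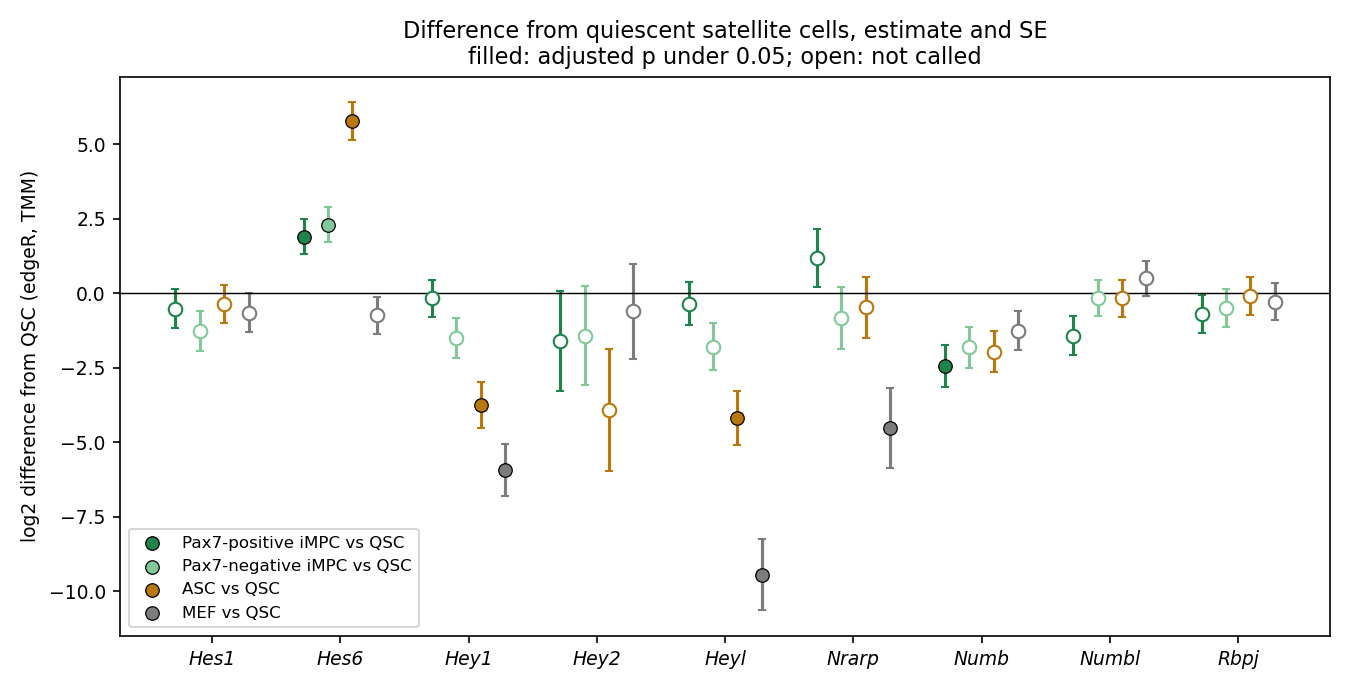
Log2 difference of each group from QSC for the 9 genes, with the edgeR estimate as a point and its SE as a bar; filled points have an adjusted p under 0.05. Hes6 is filled upward in 3 comparisons, and Hey1 and Heyl are filled downward in ASC (-3.74 and -4.20) and in MEFs (-5.92 and -9.45).

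Hes1, the best known Notch-driven repressor, did not follow Hey1 and Heyl. It was at 65.9 and 132 CPM in QSC, 76.7 CPM in ASC, 69.4 CPM in Pax7-positive iMPCs, 62.9 CPM in MEFs and 40.8 CPM in Pax7-negative iMPCs. ASC and Pax7-positive iMPCs lay between the QSC mice, MEFs lay just below mouse 1, and Pax7-negative iMPCs were lowest. These places changed by deposited RPKM, made without TMM, where mouse 1 was lowest (32.8) and Pax7-negative iMPCs (34.3) were next. No difference from QSC was called; the largest was -1.28 ± 0.67 in Pax7-negative iMPCs (edgeR adjusted p = 0.19), and the difference in MEFs, where Hey1 and Heyl fell, was -0.66 ± 0.65 (adjusted p = 0.504). Hes1 in ASC and in Pax7-positive iMPCs differed by 1.11-fold (counting interval 1.04 to 1.18), and in Pax7-positive iMPCs and MEFs by 1.1-fold (1.03 to 1.18).

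Hey2, the Hey paralog best known from heart and vessels, was nearly silent in these samples. It had 9 and 51 counts in QSC, 2 in ASC, 14 in Pax7-positive iMPCs, 15 in Pax7-negative iMPCs and 24 in MEFs, which is 0.429 and 2.31, 0.0861, 0.450, 0.506 and 0.897 CPM. The ASC library was lowest, and the other 3 lay between the QSC mice. No difference from QSC was called. In ASC, Hey2 was 16.2-fold lower than in the QSC libraries together (counting interval 4.28 to 137; edgeR adjusted p = 0.19), and its log2 difference was -1.63 from mouse 1 and -3.86 from mouse 3. The QSC mice themselves differed by 5.37-fold (counting interval 2.62 to 12.4, higher in mouse 3). Among both iMPC fractions and MEFs, the intervals of all 3 ratios included 1, the ratio of Pax7-positive to Pax7-negative iMPCs running from 0.398 to 1.98, so differences there were not detectable at these counts.

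Read per length, in the deposited RPKM values that allow genes to be compared, the repressors made up different mixtures in each cell type. RPKM values carry no TMM scaling, whose factors were 0.717 and 0.763 for QSC and between 1.11 and 1.21 for the other libraries. RPKM sums of QSC therefore stand lower against the other libraries than they would on the TMM scale. Shares and ratios within a library do not depend on that scaling. Hes1, Hey1, Heyl and Hey2 together came to 106 and 198 RPKM in QSC, 187 RPKM in Pax7-positive iMPCs, 85.7 RPKM in Pax7-negative iMPCs, 68.7 RPKM in ASC and 51.8 RPKM in MEFs. Hes1 made up 31.0% and 35.4% of this sum in QSC, 30.3% in Pax7-positive iMPCs, 40.0% in Pax7-negative iMPCs, 86.4% in ASC and 97.0% in MEFs. The share of Hes1 was thus between 30.3% and 40.0% in QSC and both iMPC fractions, and Hes1 was most of the sum in ASC and MEFs. The mixture of the Hey genes themselves was not stable between the QSC mice: the ratio of Heyl to Hey1 in RPKM was 0.479 in mouse 1 and 3.58 in mouse 3, with 1.37 in Pax7-positive iMPCs, 1.27 in Pax7-negative iMPCs, 1.13 in ASC and 0.134 in MEFs. Hey2 stayed at or under 0.781% of the sum in each library. The ratio of Hes6 to Hes1 in RPKM was 0.412 and 0.209 in QSC, 0.26 in MEFs, 1.47 in Pax7-positive iMPCs, 3.30 in Pax7-negative iMPCs and 19.5 in ASC. Hes6 thus exceeded Hes1 per length in the 3 cultured myogenic libraries and lay under it in QSC and MEFs.

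**Figure D3:**
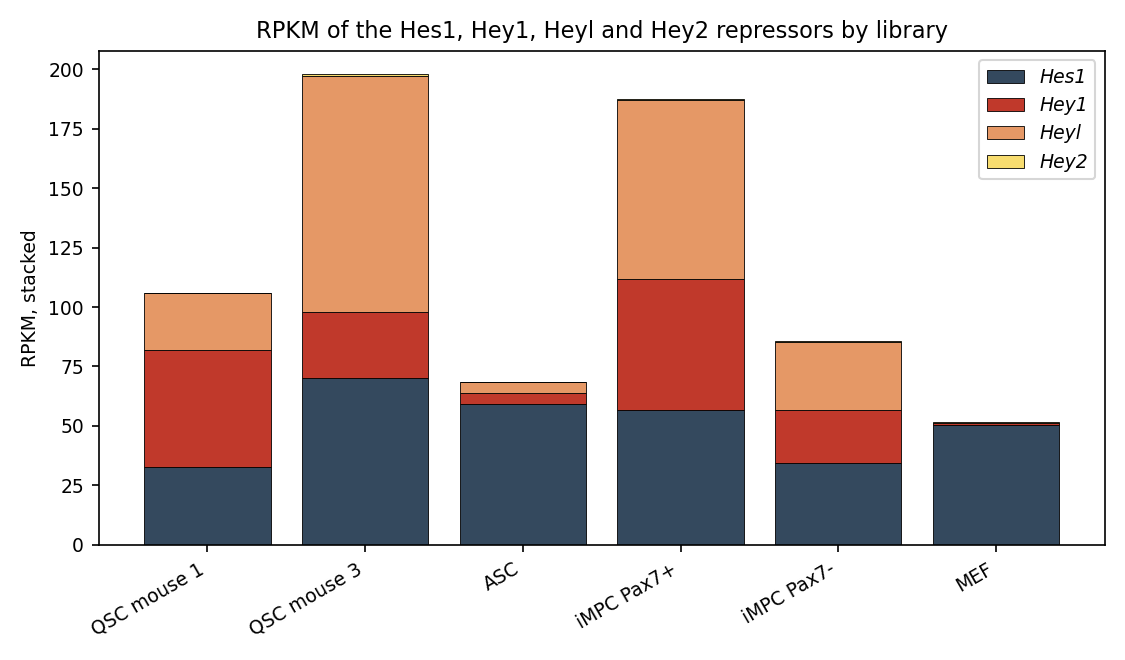
RPKM of Hes1, Hey1, Heyl and Hey2 stacked for each of the 6 libraries, 1 bar per library, without TMM scaling. Hes1 is 86.4% of the bar in ASC and 97.0% in MEFs, against 31.0% and 35.4% in the QSC mice and 30.3% in Pax7-positive iMPCs; Hey2 is too small to see.

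Nrarp, the small ankyrin-repeat protein that limits the Notch complex, was the scarcest of the genes that changed. It was at 9.58 and 2.62 CPM in QSC, 13.8 CPM in Pax7-positive iMPCs, 4.39 CPM in ASC, 3.41 CPM in Pax7-negative iMPCs and 0.262 CPM in MEFs, where it had 7 counts. Pax7-positive iMPCs were the highest, MEFs were the lowest, and ASC and Pax7-negative iMPCs lay between the QSC mice. Nrarp fell by 4.52 ± 1.34 in MEFs (edgeR adjusted p = 0.0246), a call that library size scaling ended (-3.86, adjusted p = 0.104; range over all alternatives 0.00136 to 0.104), and the difference was -4.83 from mouse 1 and -2.99 from mouse 3. In Pax7-positive iMPCs it was 1.18 ± 0.97 (edgeR adjusted p = 0.406), with 0.53 from mouse 1 and 2.37 from mouse 3. An antisense gene, Gm38287, overlaps 2051 exonic bases of Nrarp in GENCODE M21, and whether counting used the strand is not given in the sources used here, so reads of this pair cannot be told apart; the count table does not list Gm38287.

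Numb and Numbl, the adaptors that restrain the receptor, differed in where the QSC mice stood among the libraries. Outside QSC both were highest in MEFs and lowest in Pax7-positive iMPCs. Numb was at 83.2 and 60.6 CPM in QSC, 13.2 CPM in Pax7-positive iMPCs, 18.4 CPM in ASC, 20.5 CPM in Pax7-negative iMPCs and 30.1 CPM in MEFs. It was the only one of the 9 genes whose other 4 libraries all lay on 1 side of both QSC mice, below them, as they did for 25.6% of all genes tested (27.8% had all 4 above). Numb fell by 2.45 ± 0.71 in Pax7-positive iMPCs (edgeR adjusted p = 0.0209; -2.65 from mouse 1 and -2.20 from mouse 3), and library size scaling moved this to -1.77 and ended the call (adjusted p = 0.101; range over all alternatives 0.00211 to 0.101). The differences of -1.97 ± 0.69 in ASC, -1.81 ± 0.68 in Pax7-negative iMPCs and -1.26 ± 0.66 in MEFs were not called (edgeR adjusted p = 0.0525, 0.0729 and 0.19). The first of these was called under 4 of 6 alternatives (adjusted p 0.0138 to 0.165) and the next under 2 (0.0251 to 0.234). Dissociation stress genes were likewise higher in both QSC mice than in every other library, by far more, and their part in the Numb values was not tested.

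Numbl was at 46.0 and 69.4 CPM in QSC, 51.3 CPM in ASC, 51.9 CPM in Pax7-negative iMPCs, 81.3 CPM in MEFs and 21.5 CPM in Pax7-positive iMPCs. ASC and Pax7-negative iMPCs lay between the QSC mice and differed from each other by less than counting error (ratio 1.01, interval 0.938 to 1.09). Numbl by deposited RPKM, made without TMM, was higher in both of them (20.7 and 22.8) than in the QSC mice (12.0 and 19.2). None of its differences was called; that in Pax7-positive iMPCs was -1.42 ± 0.65 (edgeR adjusted p = 0.132). Per length, the ratio of Numbl to Numb in RPKM was 0.56 and 1.16 in QSC, 1.66 in Pax7-positive iMPCs, 2.57 in Pax7-negative iMPCs, 2.73 in MEFs and 2.82 in ASC, higher in each of these 4 than in either QSC mouse. In GENCODE M21, Gm46367 overlaps 166 exonic bases of Numb on the opposite strand and Gm44641 overlaps 85 of Numbl on the same strand, so those reads are uncertain too.

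Rbpj, the DNA-binding partner of the Notch receptor, was not called in any of the 4 comparisons with QSC. It was at 103 and 209 CPM in QSC, 146 CPM in ASC, 128 CPM in MEFs, 111 CPM in Pax7-negative iMPCs and 96.5 CPM in Pax7-positive iMPCs. The QSC mice marked the top of the range and a level near its bottom, and 3 of the other libraries lay between them. Rbpj by deposited RPKM, made without TMM, was highest in ASC (29.9), just above mouse 3 (29.4), and lowest in mouse 1 (13.6). The largest difference from QSC was -0.69 ± 0.65 in Pax7-positive iMPCs (edgeR adjusted p = 0.472).

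The spread between the QSC mice was itself large for several of these genes and followed no common direction. Hes1, Heyl and Rbpj were higher in mouse 3, by 2.01-fold (counting interval 1.88 to 2.14), 3.95-fold (3.80 to 4.11) and 2.04-fold (1.93 to 2.14). Hey1 and Nrarp were higher in mouse 1, by 1.89-fold (1.79 to 2.01) and 3.65-fold (2.72 to 4.98). Hes6 differed by less than counting error (ratio 0.981, interval 0.871 to 1.104). A rule of size, 4-fold or more in log2 CPM (prior count 2) and 5 CPM or more in the higher library, was met by 0 of the 9 between the mice and by 3.9% of 10639 genes (2.73% higher in mouse 1, 1.17% lower); Heyl and, at a lower expression limit, Hey2 lay at its edge. Mouse 1 also held more RNA of other cells: erythroid markers summed to 1299 CPM against 20.1 CPM in mouse 3, and immune markers to 212 against 76.2 CPM. In the other 4 libraries these sums were between 0.483 and 2.95 CPM and between 1.90 and 12.0 CPM, so both lists moved with every difference from QSC, and their part was not tested. Sex, the share of other cells and the animal cannot be told apart in this pair.

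Between the sorted iMPC fractions, 4 of the Notch-driven genes were higher in Pax7-positive cells. The Pax7-positive library was higher for Nrarp (4.06-fold, counting interval 3.26 to 5.09), Heyl (2.71-fold, 2.60 to 2.82), Hey1 (2.50-fold, 2.34 to 2.67) and Hes1 (1.70-fold, 1.59 to 1.83). The Pax7-negative library was higher for Numbl (2.41-fold, 2.20 to 2.64), Numb (1.56-fold, 1.37 to 1.77), Hes6 (1.32-fold) and Rbpj (1.15-fold, 1.098 to 1.21). None of the 9 reached the rule of size, which 6.85% of 11058 genes did, 0.208% with the Pax7-positive library higher and 6.65% lower. Nrarp missed it narrowly, at a log2 difference of 1.996 with the prior count, and passed it with a prior count of 0.5 or with DESeq2-style size factors. The difference has no replicate check. The sum of the fibroblast markers was also lower in the Pax7-positive library (2101 against 8212 CPM), though Fap was not (34.0 against 31.9 CPM). The part of these markers was not tested.

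Against the other single libraries, Pax7-positive iMPCs passed the rule of size for 3 of the 9 genes compared with ASC (11.5% of all genes, 3.54% higher and 7.91% lower) and for 4 compared with MEFs (13.7%, 4.97% higher and 8.71% lower). Compared with ASC, Heyl was 14.4-fold higher (counting interval 13.1 to 15.9), Hey1 was 11.9-fold higher (10.3 to 13.7) and Hes6 was lower. Compared with MEFs, Heyl was 552-fold higher (329 to 1010), Hey1 53.8-fold (40.8 to 72.5), Nrarp 52.9-fold (25.4 to 132) and Hes6 6.25-fold (5.64 to 6.94). Pax7-negative iMPCs passed it for Hes6, Hey1 and Heyl compared with ASC (3 of 9; 12.6% of all genes, 7.39% higher and 5.18% lower) and for the same 3 genes compared with MEFs (10.6%, 7.08% higher and 3.57% lower). There Hey1 was 4.74-fold and Heyl 5.32-fold higher than in ASC, and 21.5-fold and 204-fold higher than in MEFs. ASC passed it against MEFs for Hes6, Hey1 and Heyl (3 of 9, beside 13.3%, 7.11% higher and 6.15% lower). Hes6 was at 91.6-fold (83.2 to 101) and Heyl at 38.3-fold (22.6 to 70.6). Nrarp was 16.8-fold higher in ASC than in MEFs (7.86 to 42.8) and 13.0-fold higher in Pax7-negative iMPCs than in MEFs (6.10 to 33.3). It missed the rule there because it was under 5 CPM in the higher library. The order MEFs, ASC, Pax7-negative iMPCs, Pax7-positive iMPCs therefore held for Hey1 and for Heyl, each step larger than counting error.

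The same rule of size was applied to the mean of the QSC mice and to each mouse alone. In Pax7-positive iMPCs Numb passed it (29.2% of all genes did), against mouse 3 alone Nrarp passed too (31.6%), and against mouse 1 alone only Numb did (28.4%). In Pax7-negative iMPCs Hes6 passed it (27.2%), with Heyl, lower, added against mouse 3 alone (29.8%) and Numb, lower, added against mouse 1 alone (26.2%). In ASC Hes6, Hey1 and Heyl passed it (29.3%), as they did against mouse 3 alone (31.2%), and Numb was added against mouse 1 alone (28.9%). In MEFs Hey1, Heyl and Nrarp passed it (28.7%), as they did against mouse 1 alone (28.3%). Against mouse 3 alone (30.8%) Nrarp did not, being under 5 CPM in both libraries, with a log2 difference of -2.99.

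Of 36 other genes of the Notch pathway, 6 rose and 1 fell in Pax7-positive iMPCs against QSC, 4 rose and 0 fell in Pax7-negative iMPCs, 6 rose and 1 fell in ASC, and 3 rose and 4 fell in MEFs, in edgeR's test (3 and 1 in MEFs under library size scaling). For the count of 0, edgeR gave 2 at an unadjusted p under 0.05 and DESeq2 called 2. The medians of the list were 0.06, -0.30, -0.44 and -0.43. Adam10, the protease that cuts the receptor, Lfng, the Fringe enzyme that modifies it, and Dlk1, an atypical ligand, rose in all 4 groups, Adam10 in ASC not under library size scaling (edgeR adjusted p = 0.0518 against 0.0293). Lfng was at 0.429 and 0.271 CPM in QSC, 29.0 CPM in Pax7-positive iMPCs, 27.5 CPM in ASC, 10.4 CPM in MEFs and 5.13 CPM in Pax7-negative iMPCs.

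Jag2 and Dll1, ligands that activate the receptor, were higher in the cultured myogenic libraries than in QSC and MEFs. Jag2 was at 4.48 and 2.40 CPM in QSC, 125 CPM in ASC, 46.0 CPM in Pax7-positive iMPCs, 27.3 CPM in Pax7-negative iMPCs and 1.05 CPM in MEFs, and it rose by 5.19 ± 0.67, 3.74 ± 0.64 and 2.99 ± 0.63 in the first 3 of these 4 (edgeR adjusted p = 3.96e-05, 0.000713 and 0.0035). Dll1 was at 18.1 and 16.4 CPM in QSC, 87.0 CPM in ASC, 58.8 CPM in Pax7-positive iMPCs, 45.3 CPM in Pax7-negative iMPCs and 0.149 CPM in MEFs; it rose in ASC (edgeR adjusted p = 0.00993) and in Pax7-positive iMPCs (adjusted p = 0.0432) and fell in MEFs (adjusted p = 0.000124). The call of Dll1 in Pax7-positive iMPCs was lost with DESeq2-style size factors (edgeR adjusted p = 0.0549) and with the 5 CPM filter (adjusted p = 0.061). Both ligands were highest in ASC, the myogenic library with the least Hey1 and Heyl. Dll4, an endothelial ligand, had 109 and 11 counts in QSC and 0 in ASC and in MEFs, at least 21.5-fold and 24.8-fold lower over the group (by mouse at least 40.2-fold and 3.85-fold in ASC, 46.4-fold and 4.44-fold in MEFs, against 3 counts in the library); both calls (edgeR adjusted p = 0.0441 and 0.041) were lost under library size scaling (0.125 and 0.122), that in ASC also with DESeq2-style size factors (0.0519). Mouse 1 also had the higher endothelial sum, whose part was not tested.

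**Figure D4:**
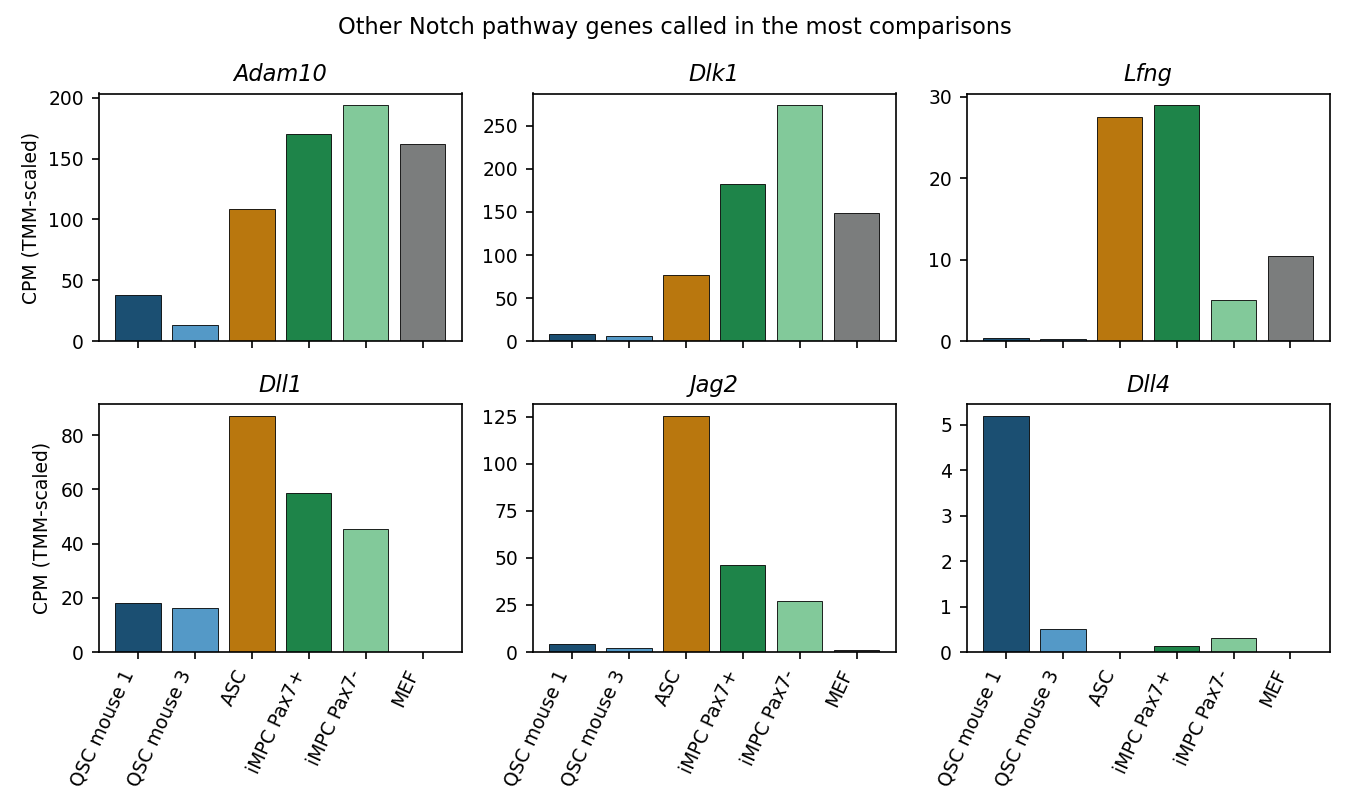
TMM-scaled CPM of the 6 other Notch pathway genes called in the most comparisons, 1 bar per library, with a linear axis from 0 in each panel. Jag2 and Dll1 are highest in ASC (125 and 87.0 CPM) and Dll4 is seen almost entirely in QSC of mouse 1 (5.20 CPM).

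Of 7 other repressors of the Hes kind, 3 passed the filter: Bhlhe40, Bhlhe41 and Hes5. Bhlhe40, a stress-responsive repressor, was at 136 and 292 CPM in QSC and fell in Pax7-positive iMPCs (-3.44 ± 0.76), ASC (-3.34 ± 0.76) and MEFs (-2.08 ± 0.70; edgeR adjusted p = 0.00451, 0.00484 and 0.0463); in Pax7-negative iMPCs it was not called (-1.93 ± 0.70, adjusted p = 0.0623). All 3 calls were lost under library size scaling, and the difference in Pax7-negative iMPCs was called by DESeq2 (adjusted p = 0.0197) and by edgeR without the filter (adjusted p = 0.0474). Hes5, an alternative Notch target in many tissues, had 18 counts in QSC of mouse 1 and 0 counts in all other libraries; it is named after its values were seen. Of 6 genes of the Tle family, whose corepressors Hes proteins recruit, edgeR called 0 in each comparison as fitted here. At an unadjusted p under 0.05 edgeR gave 1 in Pax7-positive iMPCs and 1 in ASC, and DESeq2 called 0. Tle3, named after its values were seen, was called up by edgeR in Pax7-positive iMPCs without the filter and in the fit of 3 libraries (adjusted p = 0.0352 and 0.0478), and in ASC without the filter (adjusted p = 0.0287).

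Of 11 collagens and quiescence genes linked to Notch in satellite cells, 5 fell in Pax7-positive iMPCs, 6 fell and 2 rose in Pax7-negative iMPCs, 8 fell in ASC, and 7 fell and 2 rose in MEFs. The list medians were -1.36, -2.09, -3.26 and -3.37. Beside this list and the bHLH list below, between 11.3% and 12.1% of all genes rose and between 6.57% and 9.31% fell, depending on the comparison. Sdc4, a syndecan of satellite cells, was at 2048 and 1903 CPM in QSC and between 184 and 218 CPM in the other 4 libraries, and it fell in each. Cd34, a surface protein of quiescent satellite cells, was at 249 and 171 CPM in QSC and between 1.42 and 49.3 CPM elsewhere, and fell in all 4 groups, as did Pax3, Calcr and Chrdl2. Under library size scaling the calls of Cd34 in Pax7-negative iMPCs and of Pax3 in ASC were lost (edgeR adjusted p = 0.146 and 0.193), and that of Pax3 also with DESeq2-style size factors (0.0518). Col6a2, a collagen VI chain that fibroblasts also make, was at 69.4 and 89.2 CPM in QSC, 64.3 CPM in Pax7-positive iMPCs, 484 CPM in Pax7-negative iMPCs, 320 CPM in MEFs and 3.14 CPM in ASC; it fell in ASC and rose in Pax7-negative iMPCs and MEFs. Of 12 bHLH partners and targets, 3 rose and 2 fell in Pax7-positive iMPCs, 3 rose and 1 fell in Pax7-negative iMPCs, 4 rose in ASC, and 1 rose and 4 fell in MEFs. Tcf3, an E protein partner of the myogenic factors, was at 43.3 and 46.2 CPM in QSC. In Pax7-positive iMPCs (247 CPM) it rose by 2.47 ± 0.57 (edgeR adjusted p = 0.00572). It also rose in Pax7-negative iMPCs (198 CPM, edgeR adjusted p = 0.014) and in ASC (166 CPM, adjusted p = 0.0255). In MEFs (138 CPM) Tcf3 was not called (edgeR adjusted p = 0.0534), but was under library size scaling (0.0364). Myf5 and Myog were called in as many comparisons. Myf5 fell in both iMPC fractions and in MEFs. Myog rose in Pax7-negative iMPCs and ASC and fell in MEFs, calls that library size scaling ended.

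The genes most like each member across the 6 libraries were found by the root mean square difference of centred log2 CPM, among 12662 genes. For Heyl these were Fgfr4, an FGF receptor of muscle progenitors, at 0.679, Ripply3 at 0.822 and Vgll2, a muscle cofactor, at 0.975, with Pearson r of 0.984, 0.981 and 0.960. Fgfr4 was at 323 and 479 CPM in QSC, 379 CPM in Pax7-positive iMPCs, 112 CPM in Pax7-negative iMPCs, 44.9 CPM in ASC and 0.299 CPM in MEFs. For Hes6 they were Padi3 (0.391), Itgb4 (0.446) and Akap6 (0.483). Itgb4, an integrin chain, was at 284 CPM in ASC and at most 15.6 CPM elsewhere. For Nrarp the closest was Itga7 (0.572), the laminin-binding integrin of muscle, and for Hey1 it was Gm5641 (0.668). For Numb they were Lrrc8e (0.117), Dnajc3 (0.124), a chaperone of the endoplasmic reticulum, and Map1lc3b (0.155), an autophagosome protein. Each likeness rests on 6 libraries that share their scaling, and ranking by Pearson r instead kept at most 1 of the 3 genes for any member.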

How the data were processed

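RNA selected for poly(A) from 6 mouse libraries was sequenced after directional library construction, per the labels' protocols. Raw read counts per gene, with no normalization, were deposited by the authors for each library, with a table of RPKM values that pairs identifiers with symbols. The submitters' processing notes name mm9 and the tools Picard 1.100, HTSeq 0.6.0, STAR 2.3.0 and edgeR; annotation and strand setting are not given there. The deposited RPKM values equal counts divided by gene length and library total (largest relative deviation of the implied length 5.44e-15).

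The counts were tested with edgeR 4.0.16 (limma 3.58.1, R 4.3.3): expression filter by group, TMM, 1 coefficient per group over all 6 libraries, two-sided quasi-likelihood F test, Benjamini-Hochberg adjustment over 17116 genes, threshold 0.05, 1 residual degree of freedom. Pairs of single libraries have no test: the rule of size (4-fold, prior count 2, at least 5 CPM) and exact 95% counting intervals are given. A group at 0 counts is compared with 3 counts. Alternatives were library size scaling, DESeq2-style size factors, DESeq2 1.42.0, 2 other filters, fits of 3 libraries, each QSC mouse alone, RPKM values and other limits. Genes named beside the 9 are those called in the most comparisons (up to 6 per list) and the 3 most alike per member. The members and lists were chosen with earlier results of these data known.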

Additional observations from a re-analysis of the deposited data

How the results depend on the processing

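Over 6 other scalings, filters, sample choices and tools, the calls of Hes6 in 3 comparisons and of Hey1 in ASC and MEFs and Heyl in MEFs were kept. Under library size scaling 1 member was called in Pax7-positive iMPCs against QSC in place of 2, and these uncalled log2 differences turned positive: in Pax7-positive iMPCs Hes1 0.14, Hey1 0.51 and Heyl 0.29, in Pax7-negative iMPCs Numbl 0.55 and Rbpj 0.21, in ASC Hes1 0.21, Nrarp 0.14, Numbl 0.41 and Rbpj 0.48, and in MEFs Rbpj 0.34. In Pax7-negative iMPCs 2 members were called by DESeq2 and by the fit of 3 libraries. The rule of size gave 1 member between the iMPC fractions (DESeq2-style size factors; prior count 0.5) and 1 between the QSC mice (library size, DESeq2-style size factors, RPKM, minimum of 1 CPM), against 0. The cause was not tested.

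Leaving out a QSC mouse leaves no residual degrees of freedom, so it gives values and no test. The signs differed, without mouse 3 and without mouse 1, in Pax7-positive iMPCs for Hes1 (0.0745 and -0.93), Hey1 (-0.56 and 0.36), Hey2 (0.0596 and -2.17) and Heyl (0.95 and -1.03), in Pax7-negative iMPCs for Hey2 (0.21 and -2.03), Nrarp (-1.47 and 0.37), Numbl (0.17 and -0.42) and Rbpj (0.12 and -0.91), in ASC for Hes1 (0.22 and -0.78), Nrarp (-1.11 and 0.73), Numbl (0.16 and -0.44) and Rbpj (0.51 and -0.52), and in MEFs for Hey2 (0.94 and -1.29) and Rbpj (0.32 and -0.70). Members past the rule of size against QSC, an alternative chosen after seeing the data, numbered 1 to 2 in Pax7-positive iMPCs, 2 in Pax7-negative iMPCs (1 with both mice), 3 to 4 in ASC and 2 to 3 in MEFs. No paired analysis was possible because the labels pair no QSC library with a library of another group. Depth limits Hey2 in all libraries and Nrarp and Heyl in MEFs.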
